A study of Homo sapiens with 5 samples.

Results

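The major histocompatibility region of chromosome 6 held 150 of the 181723 chromatin accessibility hotspots listed for MCF10A cells. Its members are the hotspots of chr6 with a midpoint in chr6:28500000-33500000 of hg38, and the whole of chr6 held 8752. By position, 72 lay in the class I part (up to the end of MICB), 36 in the class III part (to the end of NOTCH4) and 42 in the class II part (the remainder). MCF10A, the single group of the study, is a human line of mammary epithelial cells that is immortal but forms no tumours. No treatment is stated beyond the growth medium, which held 10 µg/ml insulin, 100 ng/ml cholera toxin, 20 ng/ml EGF, 0.5 µg/ml hydrocortisone and 5% serum of horse. ATAC-seq, in which the Tn5 transposase inserts adapters into open DNA, was run on 5 libraries, and the authors pooled the reads of all 5 before they called hotspots, the intervals of local read enrichment. The list gives the start, the end and a score for each hotspot, whose scale is not stated and which is used here only for order. It gives no value per library, so no difference below has a replicate error or a test, and the depth behind the scores is unknown. The intervals given are 95% intervals (Wilson for shares, exact Poisson for densities) and cover counting error only.

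The region is among the most gene-dense of the human genome. Class I HLA molecules sit on nearly all nucleated cells and present peptides from inside the cell to cytotoxic T cells, while class II molecules sit mainly on professional antigen presenting cells and present peptides taken up from outside to helper T cells. The proteasome subunits PSMB8 and PSMB9 cut the class I peptides, TAP1 and TAP2 carry them into the endoplasmic reticulum, and tapasin (TAPBP) helps to load them. Class III, between the others, holds complement, TNF family and heat shock genes beside many genes that every cell uses. The HLA genes are among the most variable between people, and the reference assembly carries alternative versions of the whole region as separate contigs. Class I promoters carry an enhancer A site for NF-kappaB, an interferon-stimulated response element and a CCAAT box, and class II promoters carry X and CCAAT (Y) boxes that RFX, NF-Y and CIITA use.

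The promoters at which the class I, class II and transport genes differed are shown first, from the RefSeq promoter table (GRCh38.p14), 5′ to 3′ on the strand of the gene. Capitals mark the letters GAANNGAAA (interferon-stimulated response element, short form), GGGNNTTCC (enhancer A form), AGNAACNGA (class II X box, short form), ATTGG (inverted CCAAT box) and GGGCGG (GC box), on either strand. HLA-B and HLA-C present peptides to T cells, and of this pair a hotspot covered the promoter of HLA-C. HLA-DRB1 and HLA-DQA1 encode class II chains and had none. TAP1 and PSMB9 are transcribed in opposite directions from neighbouring start sites, and 1 hotspot covered both.
HLA-B, 200 bases before the start site, chr6:31357180-31357379, minus strand: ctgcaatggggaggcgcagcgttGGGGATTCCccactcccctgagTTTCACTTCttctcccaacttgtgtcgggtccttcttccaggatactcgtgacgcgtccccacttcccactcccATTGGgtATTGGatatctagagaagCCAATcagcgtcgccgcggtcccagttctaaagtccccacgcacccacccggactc
HLA-C, 200 bases before the start site, chr6:31272093-31272292, minus strand: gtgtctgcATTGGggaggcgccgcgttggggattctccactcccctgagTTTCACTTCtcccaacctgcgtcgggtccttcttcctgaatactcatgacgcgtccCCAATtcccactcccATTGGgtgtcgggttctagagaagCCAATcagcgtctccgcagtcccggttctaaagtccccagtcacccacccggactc
HLA-DRB1, 200 bases before the start site, chr6:32589849-32590048, minus strand: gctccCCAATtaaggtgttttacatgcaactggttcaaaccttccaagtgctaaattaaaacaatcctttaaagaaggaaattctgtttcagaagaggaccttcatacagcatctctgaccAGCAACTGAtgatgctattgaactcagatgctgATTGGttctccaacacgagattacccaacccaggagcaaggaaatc
HLA-DQA1, 200 bases before the start site, chr6:32637206-32637405, plus strand: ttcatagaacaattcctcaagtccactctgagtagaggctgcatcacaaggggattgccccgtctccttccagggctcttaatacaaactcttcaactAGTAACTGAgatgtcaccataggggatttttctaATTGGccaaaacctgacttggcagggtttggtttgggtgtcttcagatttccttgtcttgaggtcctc
TAP1, 200 bases before the start site, chr6:32853705-32853904, minus strand: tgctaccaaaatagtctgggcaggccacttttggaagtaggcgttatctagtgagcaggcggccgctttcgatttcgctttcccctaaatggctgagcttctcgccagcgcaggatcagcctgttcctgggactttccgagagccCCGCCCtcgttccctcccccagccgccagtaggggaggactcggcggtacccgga
PSMB9, 200 bases before the start site, chr6:32853992-32854191, plus strand: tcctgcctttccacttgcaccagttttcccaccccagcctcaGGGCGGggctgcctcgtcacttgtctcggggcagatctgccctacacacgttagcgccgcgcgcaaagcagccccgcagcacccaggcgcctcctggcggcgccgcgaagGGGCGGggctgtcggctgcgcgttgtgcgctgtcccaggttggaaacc

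HLA-B and HLA-C, next to each other, both held a match of the interferon element (starting 155 and 151 bases before the start site) and several CCAAT boxes, and HLA-B held the enhancer A letters 177 bases before its start site. HLA-DRB1 and HLA-DQA1 each held an X box followed by a CCAAT box. The promoters of TAP1 and PSMB9 held GC boxes and none of the other letters in these 200 bases. These letters are those of the reference, and the alleles of MCF10A were not analysed here.

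The density of hotspots changed at both ends of the region. Within it there were 30.0 hotspots per Mb (25.4 to 35.2), against 52.1 per Mb (51.0 to 53.2) on the rest of chr6. The last 0.5 Mb before it held 44 hotspots and the first 0.5 Mb after it 65, while the 10 bins of 0.5 Mb inside held between 1 and 28. All 10 inner bins were lower than any of the 10 outer bins, which held between 34 and 82. When chr6 was divided into 33 windows of 5 Mb, 3 of the other 32 were lower than the region and their range was 17.8 to 92 per Mb.

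Coding genes ran the other way. The region had 34.2 protein-coding genes per Mb against 5.06 on the rest of chr6, and so 0.877 hotspots for each gene against 10.3. Hotspots covered 1.23% of the region and 1.85% of the rest.

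The span of the lower density was also the span of the alternative contigs. The genome holds 16 alternative contigs of chr6, 7 of them longer than 4 Mb, and 92.2% of the 75-mers of the region (75 bases is the read length) were found on at least 1 of them, against 1.74% on the rest of chr6. The 10 kb bins with most of their 75-mers on such a contig began at 28.51 Mb and ended at 33.48 Mb. A 75-mer of the bins inside the region lay on between 3.40 and 5.75 contigs on average, and in the bins outside on at most 0.0299. Within chr6 itself 97.5% of the 75-mers occurred once, both in the region and elsewhere. On the rest of chr6, the 10 kb bins that lay mostly on alternative contigs (1.98 Mb in all) held 31.8 hotspots per Mb (24.5 to 40.7), against 52.4 in all other bins. In the region the order was the opposite, with 30.6 per Mb (25.8 to 36.0) in bins mostly on alternative contigs and 5 hotspots in the other 0.26 Mb (19.2 per Mb, 6.24 to 44.9), and these intervals overlap. The list itself has 0 rows on alternative contigs. Whether these contigs were part of the index used for alignment is not given in the sources used here, and their part in the density was not tested.

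**Figure D1:**
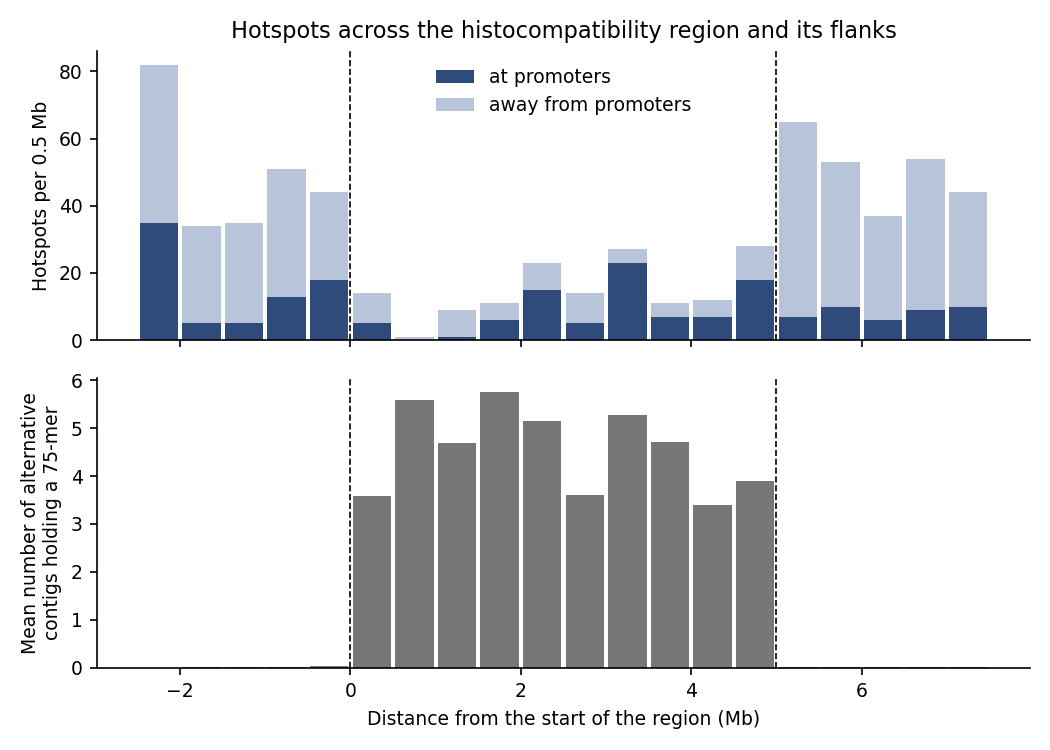
Hotspots per 0.5 Mb at and away from promoters (upper panel) and the mean number of chr6 alternative contigs that hold a 75-mer (lower panel), against the distance from the start of the region in Mb, with dashed lines at its ends. The bins inside hold 1 to 28 hotspots and 3.40 to 5.75 contigs, and the bins outside hold 34 to 82 hotspots and almost no contigs.

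Inside the region the hotspots were mainly promoter hotspots. Of the 150, 87 (58.0%, 49.998 to 65.6) overlapped the 1000 bp on either side of a start site of a protein-coding gene, against 9.70% of the 8602 hotspots on the rest of chr6. In class III 30 of 36 did so (83.3%), in class II 25 of 42 (59.5%) and in class I 32 of 72 (44.4%). The last 0.5 Mb before the region, with 26 coding genes per Mb, had 18 of 44 (40.9%, 27.7 to 55.6), an interval that overlaps that of the region. The first 0.5 Mb after it, with 12 coding genes per Mb, had 7 of 65 (10.8%, 5.32 to 20.6). The part of gene density in these shares was not tested. Introns held 8 hotspots (5.33%, against 34.5% on the rest of chr6), exons 4, and the sequence between genes 51 (34.0%, against 52.9%). With promoters set aside on both sides, the density of the region was 0.292 times that of the rest of chr6, against 0.576 times with them. Counted per Mb, the lower density thus lay in the hotspots away from promoters. Promoter hotspots were denser in the region, with 87 in 5 Mb against 834 in 165 Mb on the rest of chr6. Beside the number of coding genes they were fewer, with 87 for 171 genes against 834 for 835.

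Promoter hotspots of the region were narrower and lower in score than others of chr6. Their median width was 383 bp against 724 bp, and their median score 10.9 against 15.4. Hotspots away from promoters had a median width of 210 bp against 253 bp, and a median score of 7.12 against 5.70. The narrower width held for both kinds, the lower score for promoters alone. Over all hotspots, of which promoters made up a larger share in the region, the order was the opposite, with a median width of 314 bp against 266 bp and a median score of 9.37 against 5.99. The 3 parts differed in density, with 23.9 hotspots per Mb in class I (18.7 to 30.1), 50.5 in class III (35.4 to 69.9) and 32.9 in class II (23.7 to 44.5). The intervals of class I and class II overlap, and their order turned round (28.52 and 18.5) with class I begun at HLA-F and class II ended at HLA-DPB1. Most of class II was sparse, since the stretch from NOTCH4 to HLA-DPB1 held 16 hotspots (18.5 per Mb) and the stretch beyond HLA-DPB1 held 26 (63.4 per Mb).

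Of the 171 protein-coding genes of the region, 85 had a promoter hotspot (49.7%, 42.3 to 57.1). The background share was 75.2% of the 19171 genes elsewhere in the genome and 77.4% of the 835 genes on the rest of chr6. The 2 Mb before the region had hotspots at 36 of 44 genes and the 2 Mb after it at 23 of 27. By part, 28 of 72 genes had one in class I, 32 of 59 in class III and 25 of 40 in class II. Neighbouring genes with start sites close to each other often shared one, and 32 of the 85 genes shared their highest hotspot with another gene.

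The highest promoter score of each gene had a median of 13.9 in the region and 22.5 on the rest of chr6, where 73.5% of the genes with a hotspot were above 13.9. In the 2 Mb on either side these medians were 24.4 and 21.3. By part the medians were 13.5 in class I, 16.3 in class III and 12.004 in class II. Scores repeated exact values: 7 promoter hotspots of class III, among them those of PRRC2A, LSM2, NELFE with SKIC2 and HSPA1A, had the same score of 18.0, so genes at 18.0 have no order among themselves.

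**Figure D2:**
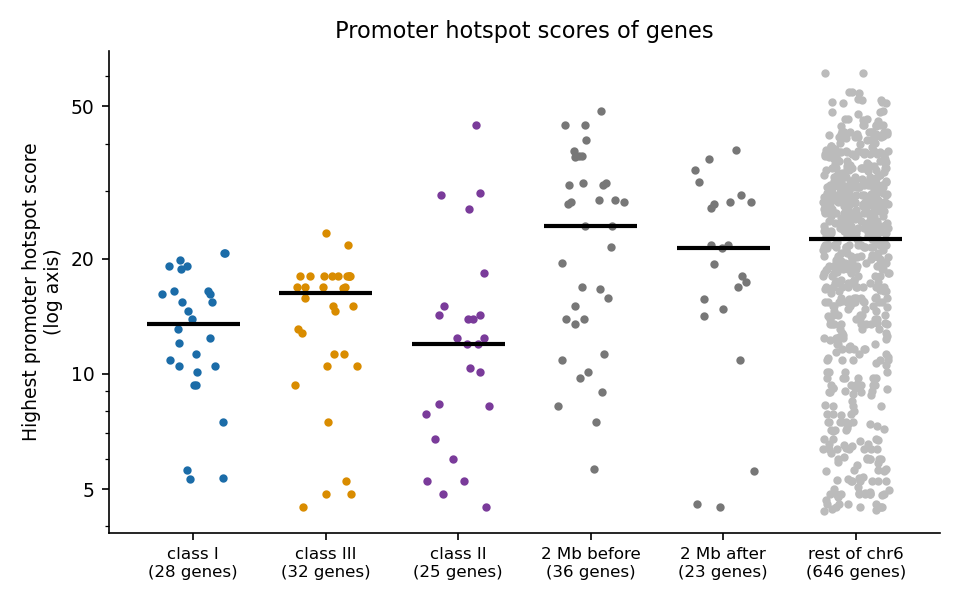
Highest promoter hotspot score (log axis) of each protein-coding gene that has one, by part of the region, in the 2 Mb on either side and on the rest of chr6, which includes those flanks; points are genes and bars are medians. The medians of the parts, 12.004 to 16.3, lie below those of the flanks (24.4 and 21.3) and of the rest of chr6 (22.5).

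Of the neighbours HLA-B and HLA-C, one was covered. HLA-C, which also acts as a ligand of natural killer cell receptors, had one of 1224 bp at chr6:31271144-31272367 with a score of 16.5, across its start site. Distances from a gene are taken from the start of its canonical transcript, and distances from a hotspot to the nearest start site of any coding transcript. HLA-B had none, and the nearest hotspot lay 42.4 kb from its start site. Both promoters had every 75-mer once on chr6, and 64.7% (HLA-B) and 79.1% (HLA-C) of these 75-mers lay on an alternative contig. These are the promoters of highly variable genes, and how far the alleles of MCF10A differ from the reference was not tested.

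Of the other class I-like genes 3 of 5 had a promoter hotspot (23.1 to 88.2%, which holds the background of 75.2%). HLA-E, a ligand of the inhibitory CD94/NKG2A receptor, scored 10.1. MICA and MICB, stress-induced ligands of the activating receptor NKG2D, scored 11.3 and 10.5, and MICA had 2 promoter hotspots. The scores of these 3 lay close together and below that of HLA-C. HLA-F had none at its start site, with the nearest at 3.26 kb, and for HLA-G, known from the placenta, it lay at 104 kb.

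None of the 9 genes for class II chains had a promoter hotspot (0 to 29.9%, against a background of 75.2%). These are HLA-DRA, HLA-DRB1, HLA-DRB5, HLA-DQA1, HLA-DQB1, HLA-DQA2, HLA-DQB2, HLA-DPA1 and HLA-DPB1, which pair as alpha and beta chains. The single hotspot inside any of them lay in an intron of HLA-DRB1 (score 9.57), and 0% of its 75-mers occurred once on chr6. The distance from the start site to the nearest hotspot ran from 4.96 kb (HLA-DRB1) to 78.4 kb (HLA-DQA2). The promoters of this group were of different kinds. At HLA-DRA, HLA-DQA2, HLA-DQB2, HLA-DPA1 and HLA-DPB1 100% of the 75-mers were on an alternative contig, while at HLA-DRB1, HLA-DRB5, HLA-DQA1 and HLA-DQB1 the share was 4.098%, 10.5%, 7.10% and 1.30%. No member of either kind had a hotspot.

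Of the genes that load class II molecules 2 of 4 had one (15.004 to 84.996%, which holds the background of 75.2%). HLA-DMA, a chain of the DM complex that exchanges class II peptides, scored 15.012, whereas its partner HLA-DMB had none. HLA-DOB, of the DO complex that inhibits DM, scored 4.86 at an alternative start site 2.83 kb from the canonical one, and its partner HLA-DOA had none. The hotspot nearest to the start site of these partners lay 12.015 kb away for HLA-DMB and 36.9 kb away for HLA-DOA.

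By contrast, all 5 genes of peptide cutting, transport and loading had one (100%, 56.6 to 100, which holds the background of 75.2%). PSMB8 and PSMB9 shared a hotspot with a score of 13.9, and the TAP1 and PSMB9 promoters printed above shared another with a score of 10.1. For PSMB9 the hotspot of 13.9 lay near an alternative start site, 9316 bp from the canonical one. TAP2 scored 7.87 and TAPBP 4.48. The whole group was below the median of 20.7 for all genes outside the region that had a hotspot.

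Genes of antigen presentation elsewhere in the genome had promoter hotspots in 12 of 14 cases (85.7%, 60.1 to 96.0), with a median of 25.8. This interval holds the background of 75.2%. B2M, the invariant light chain of class I molecules, scored 25.5. The chaperones CANX, CALR and PDIA3 scored 52.6, 33.51 and 29.7. The subunits of RFX, which binds X boxes, also had one, with 26.0 for RFX5, 33.1 for RFXANK and 19.9 for RFXAP. CIITA, the coactivator of class II genes, scored 13.9 and NLRC5, its class I counterpart, 10.3. CD74, the invariant chain of class II molecules, and CTSS, the cathepsin that degrades it, had none.

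In class III, all 12 genes listed for RNA and chromatin had a promoter hotspot (100%, 75.8 to 100, an interval that begins close to the background of 75.2%). PRRC2A, LSM2 and the pair NELFE and SKIC2 scored 18.0, MSH5, of meiotic recombination, 16.9, and GPANK1 with CSNK2B 15.012. VARS1, a tRNA synthetase, scored 14.6 and BAG6, a chaperone cofactor, 11.3. ABHD16A scored 9.37, EHMT2, a histone methyltransferase, 4.86, and DDX39B, an RNA helicase, 4.48. The median of the list was 15.012. None of the 6 TNF family and leukocyte genes had one (TNF, LTA, LTB, NCR3, AIF1, LST1), with an interval of 0 to 39.0%. Their nearest hotspots lay between 1.33 kb (LTB) and 11.9 kb (NCR3) from the start site. The promoters of both lists lay mostly on alternative contigs, with 96.3% to 100% of 75-mers for the 6 and 91.0% to 100% for the 12. The mean number of contigs differed more, from 4.60 (AIF1) to 6.96 (LTB) for the 6 and from 4.37 (EHMT2) to 5.85 (ABHD16A) for the 12. TNF, LTB, LST1 and NCR3 were above all 12, and the part of this in the counts was not tested.

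The 3 heat shock genes HSPA1A, HSPA1B and HSPA1L, which encode HSP70 chaperones, all had promoter hotspots. The interval of this share, 43.85 to 100%, holds the background of 75.2%. HSPA1B scored 21.8 over 1320 bp, and HSPA1A and HSPA1L, divergent neighbours, shared 2 of 18.0. HSPA1A and HSPA1B are near-identical copies, and 60.4% and 60.3% of the 75-mers at their promoters occurred once on chr6, so their reads are uncertain between them. NEU1, a lysosomal sialidase, had the highest promoter score of class III, 23.3.

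Of the 4 complement genes C2 alone was called (4.56 to 69.9%, against a background of 75.2%), and its call rests on uncertain hotspots. Its highest, with a score of 16.8, lay 3.62 kb from the canonical start site, and 2 of its 3 promoter hotspots belonged to the set with shared repeated sequence described below. The third, 4.86, was the hotspot of the EHMT2 promoter. CFB had none, with the nearest at 12.8 kb. C4A and C4B had none, and 0% of the 75-mers at their promoters occurred once on chr6. Of the steroid and matrix genes, TNXB scored 5.24 and CYP21A2, the steroid hydroxylase with a neighbouring pseudogene, had none (56.4% of 75-mers once).

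In class I, 15 of 18 genes listed for adhesion and growth had a promoter hotspot (83.3%, 60.8 to 94.2, which holds the background), with a median of 15.4. CCHCR1 and TCF19 shared one of 20.7, the highest promoter score of class I. PPP1R18 scored 19.9, MDC1 with TUBB 19.1, FLOT1 16.5, GNL1 with PRR3 16.1, VARS2 13.9 and the immediate early gene IER3 13.1. The hotspot of 19.1 lay 2563 bp from the canonical start site of TUBB. DDR1, a collagen receptor of epithelial cells, had 3 promoter hotspots and a highest score of 12.4, with 4 hotspots inside the gene. ATAT1, DHX16 and POU5F1, a pluripotency factor, had none.

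Of the 8 epidermal and mucin genes, CCHCR1 alone had one (2.24 to 47.1%, against a background of 75.2%). CDSN, which encodes corneodesmosin of the outer epidermis, PSORS1C1, PSORS1C2, MUC21, MUC22, MUCL3 and SFTA2 had none. Of 7 TRIM genes 3 had one, TRIM26 (14.6), TRIM39 (10.5) and TRIM27 (5.34), while the neighbours TRIM10, TRIM15, TRIM31 and TRIM40 had none. The interval of this share, 15.8 to 74.954%, ends close to the background. None of 13 olfactory receptor genes had one (0 to 22.8%). OR12D1, the 14th of that list, is not among the coding genes used.

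Of the 20 coding genes beyond HLA-DPB1, 18 had a promoter hotspot (90.0%, 69.9 to 97.2), an interval that holds the background. The list of genes from this end (called beyond class II in the plot of gene lists, although BRD2 lies before HLA-DPB1) had one at 18 of 19, and COL11A2, a cartilage collagen, had none. CUTA had the highest promoter score of the region, 44.7, which 3.25% of the genes with a hotspot on the rest of chr6 exceeded. ZBTB9, PHF1, a Polycomb cofactor, and the kinesin gene KIFC1 followed with 29.7, 29.3 and 27.0. DAXX, a histone chaperone, scored 18.4 and BRD2, a bromodomain protein, 14.3 at a hotspot 2960 bp from its canonical start site. RXRB with SLC39A7 scored 12.004 and RPS18 with VPS52 12.4, while RING1 scored 6.74. The median of the list was 12.2. BAK1 lies outside the window.

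The 4 highest of these promoters lie where few alternative contigs reach. Over the 1000 bp on either side of the canonical start site, a 75-mer lay on 1.00 contigs on average at CUTA, 0.925 at ZBTB9, 1.88 at PHF1 and 2.34 at KIFC1. Among all genes whose promoter averaged from 0.5 to under 2.5 contigs, 7 of 12 had a hotspot, with a median score of 27.0. At 2.5 to under 4.5 contigs 21 of 36 had one (median 12.8), at 4.5 to under 5.5 26 of 44 (median 12.8) and at 5.5 or more 31 of 75 (median 14.6). The share of genes was nearly level over the first 3 of these classes and lower in the last. Under 0.5 contigs there were 4 genes, HLA-DRB1, HLA-DRB5, HLA-DQA1 and HLA-DQB1, and none had a hotspot. The classes differ in the genes they hold, and the part of the contigs in the scores was not tested.

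**Figure D3:**
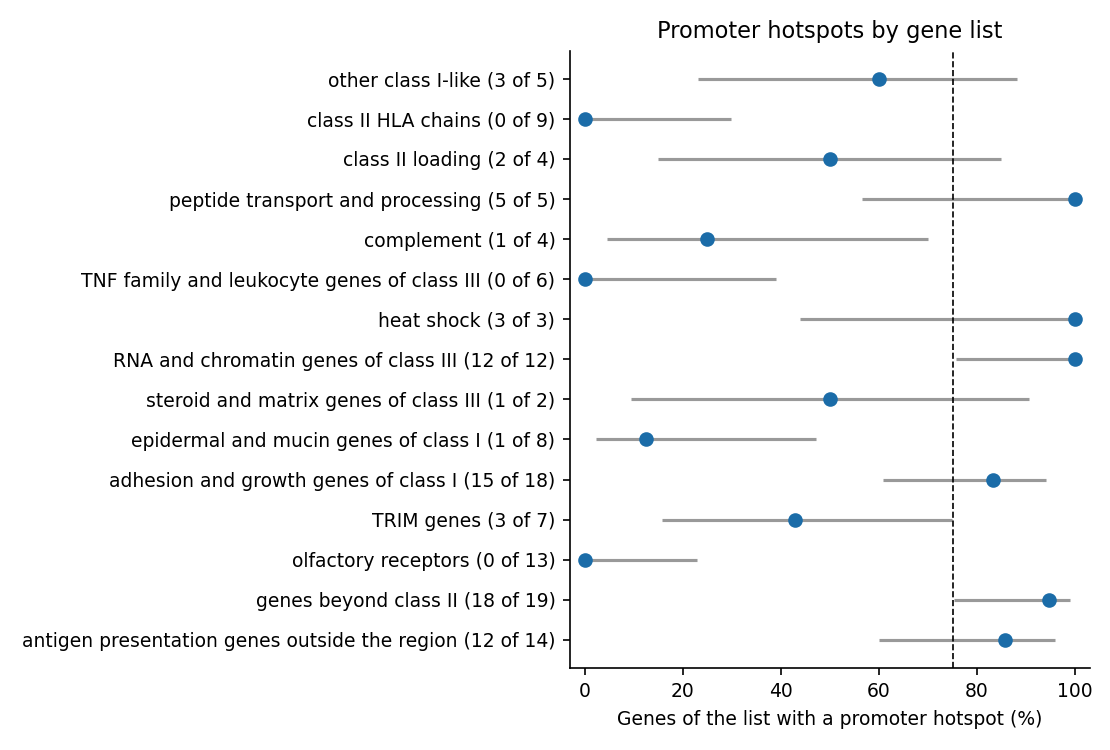
Percentage of genes in a list that had a promoter hotspot, with the count of genes in parentheses; points are shares, lines are 95% Wilson intervals of counting error, and the dashed line is the 75.2% of all coding genes outside the region. Class II chains, TNF family and leukocyte genes and olfactory receptors are at 0, and peptide transport, heat shock and the class III genes for RNA and chromatin are at 100%.

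The labelled cell type was checked against marker lists. Promoter hotspots lay at 13 of 15 markers of mammary epithelium (86.7%, 62.1 to 96.3; highest scores 18.0 to 35.3), with none at TP63 and KRT14, and this interval holds the background of 75.2%. They lay at 5 of 12 markers of antigen presenting cells and lymphocytes (41.7%, 19.3 to 68.0; CD14 16.5, CSF1R 15.7, ITGAM 12.2, CD79A 5.15, SPI1 4.79), and PTPRC, MS4A1, ITGAX, CD3E, CD3D and LYZ were among those with none.

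The 3 highest scores between genes were 147, 84.1 and 37.4, and the first 2 were also the highest of the region, followed by the CUTA promoter. The first, of 1243 bp, lay 26.9 kb from the nearest start site, that of HLA-C. The second, of 348 bp, lay 3.37 kb from HLA-F. The third, of 1847 bp, lay 38.4 kb from MICB. Their G + C content was 71.4%, 82.5% and 73.3%, and 40.1%, 12.6% and 71.8% of their 75-mers occurred once on chr6. The 3 had 96 different 12-mers in common.

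They belonged to a set of 22 hotspots joined by shared sequence. Starting from the highest, hotspots with at least 25 different 20-mers in common, on either strand, were joined until no further member was found. Of the 22, 13 lay in class I, 4 in class III and 5 in class II, and 19 lay between genes. The set made up 14.7% of the region's hotspots, while 155 hotspots (1.80%) of the rest of chr6 shared as many 20-mers with it. These shares follow unlike rules, since the set was grown from hotspots of the region alone. Those of the rest of chr6 were only matched against it, so the shares cannot be compared. It held 7 of the 10 highest hotspots away from promoters, among them those near HLA-DPA1 (23.8, at 10.0 kb), NEU1 (20.1, at 7.63 kb) and HLA-DRB1 (20.0, at 4.96 kb).

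Scores in the set ran from 4.54 to 147 with a median of 13.1, against a median of 9.18 and a highest value of 44.7 in the other 128. Their widths ran from 126 to 1851 bp. A median of 52.3% of their 75-mers occurred once on chr6, against 100% in the others. Some members lay on few alternative contigs, with 7.47% of 75-mers near HLA-F, 3.57% near MICB and 16.0% near HLA-DRB1, whereas others, such as those near HLA-DPA1, lay on them wholly. The set was found after the scores were seen, so its scores are a description. How reads from copies of the sequence elsewhere in the genome add to these scores was not tested.

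**Figure D4:**
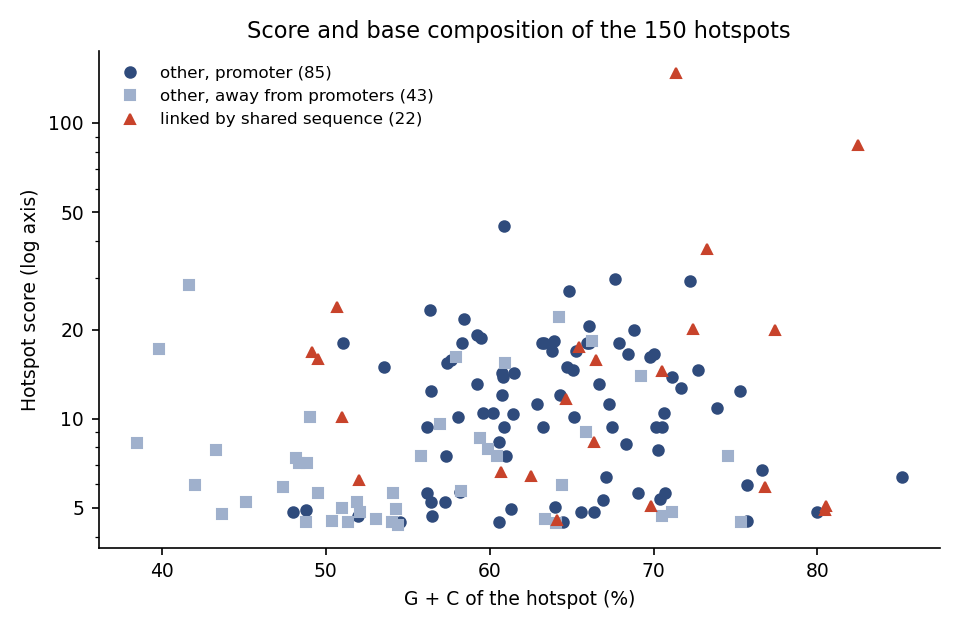
Score (log axis) against the G + C content (%) of each of the 150 hotspots; circles are promoter hotspots outside the set joined by shared sequence (85), squares other hotspots away from promoters (43) and triangles the set (22). The 2 highest points, 147 and 84.1, and the point at 37.4 are triangles with G + C contents of 71.4%, 82.5% and 73.3%.

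Other high hotspots away from coding promoters did not belong to this set. One of 506 bp, 22.2 kb from VPS52, scored 22.2, and one near IER3, at 7.76 kb, scored 16.1. Both had 100% of their 75-mers once on chr6. The one of 506 bp lay within 1000 bp of a start site of a lncRNA gene or pseudogene, the kinds counted below. A hotspot of 48 bp near SCAND3 scored 28.3 with 0% once. Of the 63 hotspots away from coding promoters, 8 lay within 1000 bp of the start site of a lncRNA gene (12.7%, 6.58 to 23.1), against 3.26% on the rest of chr6, and 4 near that of a pseudogene (6.35%, against 1.43%). Coding and lncRNA genes together numbered 260 in the region (171 coding) and 1687 on the rest of chr6 (835 coding). Genes for lncRNA were thus also denser in the region, and their part in these shares was not tested.

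Long stretches had no hotspot. There were 11 gaps longer than 100 kb, which together made up 2120 kb of the 5 Mb. The longest 2, of 357.7 kb and 351.1 kb, lie one after the other between TRIM27 and GABBR1 and hold olfactory receptor genes, which are active in the nose; a single hotspot near OR14J1 parts them. The next, of 223 kb, runs from HLA-DRB1 to HLA-DOB and holds HLA-DQA1, HLA-DQB1, HLA-DQA2 and HLA-DQB2. One of 212 kb holds HLA-F and HLA-G and one of 119 kb HLA-B. One of 157 kb holds HLA-DRA and HLA-DRB5. Of the 75-mers in the gaps around class II chains 71.2% (223 kb) and 63.4% (157 kb) lay on an alternative contig, against 98.9% and 98.2% in the 2 longest. The median gap was 12.1 kb in the region and 8.74 kb on the rest of chr6, whose longest was 493 kb.

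Motif letters were counted in the central 120 bp of the hotspots. The GC box GGGCGG, the letters that SP and KLF factors bind, was in 33.3% of the region's hotspots against 8.51% on the rest of chr6. At promoters the shares were 39.1% and 33.3%, so the difference was smaller there, and away from promoters 25.4% and 5.84%. ATTGG, the CCAAT box bound by NF-Y, was in 24.7% against 13.0%, and at promoters in 29.9% (21.3 to 40.2) against 10.9% (8.97 to 13.2). In these central windows the CCAAT letters were thus more frequent at promoter hotspots of the region than at others of chr6, and the intervals do not overlap. The fixed window takes up more of the region's promoter hotspots, whose median width was 383 bp against 724 bp. Whole promoter hotspots were not counted, this is 1 of 10 motifs, and no test was run.

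TGACTCA, the AP-1 site, was in 5.33% (2.73 to 10.2) against 6.88%. CATTCC, of TEAD factors, was in 0 of 63 hotspots away from promoters, which allows a share of up to 4.76% (3 counts of the total, in place of a Wilson limit, for counts of 0), against 7.20% on the rest of chr6. The X box letters AGNAACNGA were in 0 of 150 central windows, which by the same rule allows up to 2.00%, against 1.52%, and over whole hotspots in 6 of 150 against 4.72%. The short form of the interferon element was in 2.67% against 2.41% and the enhancer A form in 2.00% against 2.23%. Longer forms of these sites were not counted. Neither of these last differences exceeds counting error.

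At the promoters themselves, from RefSeq and whether or not they had a hotspot, 23 of the 26 HLA, MIC, loading and transport genes matched the table. In their 300 bases around the start site ATTGG was in 18 of 23, against 35.7% of all 27305 promoters. GAANNGAAA was in 7 (HLA-B, HLA-C, HLA-DOB, HLA-DQB1, MICA, MICB and TAP2), against 7.86% of all. Longer forms, such as the one in the TAP1 promoter printed above, were not counted. AGNAACNGA was in 5, of class II genes alone (HLA-DMB, HLA-DOA, HLA-DQA1, HLA-DRB1 and HLA-DRB5), against 4.59%, and none of these 5 genes had a promoter hotspot. GGGCGG was in 9 of 23 against 44.6% of all. Of these 9, 8 had a promoter hotspot (HLA-C, MICA, MICB, PSMB8, PSMB9, TAP1, TAP2 and TAPBP), the exception being HLA-DPA1. Of the 18 genes with ATTGG 7 had one, and of the 7 with GAANNGAAA 5. The background share of genes with a promoter hotspot was 75.2%. These counts are small, and a link between letters and hotspots was not tested.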

How the data were processed

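The study pooled 5 ATAC-seq libraries of MCF10A cells (paired reads of 75 bases). Reads were aligned by the authors with Bowtie2 to hg38 (the program's version is not given for these alignments in the sources used here), merged and cleared of duplicates, and hotspots were called with Hotspot 4.1 at a false discovery rate of 0.01, leaving out satellite regions. No filter on mapping quality and no Tn5 shift is stated. The deposited values are the coordinates and the score of each hotspot, and the scale of the score is not stated. Depth per library is unknown from the list.

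Hotspots of chr6 were taken by their midpoint. Genes were the 19342 named protein-coding genes of GENCODE release 44 with 78132 start sites, and a hotspot within 1000 bp of one was taken as a promoter hotspot. Borders of the parts were gene ends. 75-mers of hg38 were counted on chr6, both strands, and looked up on its 16 alternative contigs, a step tested on simulated data. The 10 motifs were searched on both strands. No test was run, since hotspots and genes are not replicates. The members and the 18 gene lists were chosen with earlier results of these data known. Beyond the lists, the genes named are those at the 10 highest hotspots, at the ends of the 5 longest gaps and nearest to the 10 highest hotspots away from promoters. A few genes and sequences are not reported here. The set joined by shared sequence and the classes by number of contigs were added after the data were seen. The alternatives were other windows, transcripts, borders, comparison regions, positions and hotspots above the median score. The scripts used matplotlib 3.10.9, numba 0.67.0, pandas 2.3.3, scipy 1.17.1 and numpy 2.4.6 under Python 3.11.15.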

Additional observations from a re-analysis of the deposited data

How the results depend on the processing

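The density of the region was 0.576 times that of the rest of chr6. The ratio was 0.771 with hotspots above the median score, 0.468 against the short arm alone and 0.292 away from promoters. It was 0.322 against the 2 Mb on either side, an alternative chosen after seeing the data. Another alternative chosen after seeing the data took the positions whose 75-mer occurs once on chr6 and on no alternative contig. At the 0.382 Mb of these in the region there were 10 hotspots (26.1 per Mb), against 47.0 per Mb elsewhere. The ratio was 0.556 (0.267 to 1.02), an interval that includes equal density. The share of genes with a promoter hotspot was 27.7 percentage points lower than on the rest of chr6 (a difference of -27.7), and -14.5 with lncRNA genes added. With class I begun at HLA-F and class II ended at HLA-DPB1, class I held 28.52 hotspots per Mb in place of 23.9 and class II 18.5 in place of 32.9, so the order of these parts turned round. The differences from the rest of chr6 in density and promoter shares kept their direction in each alternative run. Those in median width (48 bp, 0 to 97) and score over all hotspots had the short arm as their only alternative, and kept it there. With promoters kept apart, as given above, width turned round for both kinds of hotspot and score for promoters. The other 17 values of the alternatives stayed within the counting interval of the main one. Of 20 values for motifs under other windows or away from promoters, 7 left it, and the difference for the enhancer A form, -0.23 percentage points, was 3.16 over whole hotspots. The causes were not tested. No paired analysis was possible because the libraries were pooled before the calls, and for the same reason no library could be left out. The unknown depth means that a gene without a hotspot is only one below the threshold of the calls.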
